A study of Canis lupus familiaris with 5 samples.

Results

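Dog iPSCs and the skin fibroblasts they were made from were compared across all gene models, to describe which genes were gained and which were lost when the cells were reprogrammed. The libraries were chosen by their labels: 3 iPSC clones (K9 iPSC nos. 1–3) and 1 fibroblast library, 4 of the 5 libraries of the series. The fibroblasts were ear-skin cells of 1 adult dog (named K9) and are labelled as passage 1. The iPSC clones came from the same cells, which were transfected with the EP-B set of episomal vectors (human OCT4, SOX2, KLF4, L-MYC, LIN28, KLF2, NANOG, GLIS1 and KDM4D, a dominant-negative mouse p53 and EGFP), grown into primary colonies in NSM, moved to the embryonic stem cell medium ESM and picked by hand as colonies. Clone 1 was sequenced at passage 9 and clones 2 and 3 at passage 8, so passage, medium and vector history went with cell type and cannot be told apart from it. The paper placed transfected marmoset fibroblasts on mouse embryonic feeder cells. The sources used here do not say whether the dog cells had feeders, so feeder use may also have gone with cell type. Each iPSC library is 1 clone of 1 dog, and the sources used here do not give the dog's breed or its age in years.

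Reprogramming replaces one gene expression program by another. Dermal fibroblasts are mesenchymal cells that secrete large amounts of extracellular matrix, and a few matrix genes can dominate their mRNA. In pluripotent cells the matrix and contractile program is shut down, epithelial junctions form, and a self-sustaining network of transcription factors is switched on. Bulk RNA cannot tell fewer cells of a kind from less RNA per cell.

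The tables identify gene models by Ensembl dog gene ID (build CanFam3.1) and pair no ID with a symbol. The table of dog gene names at hand holds no Ensembl IDs and matched 0 of 32220 models. The label "fibroblast" or "iPSC" was therefore not checked here against marker genes, and no function is given for any model. The paper itself reports RT-PCR products of endogenous dog NANOG, OCT4 and SOX2 in the iPSC clones. Models are described by position, exon number, length and level, and 2 IDs are given in each direction.

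Library depth was 33280017 counts in fibroblasts and 29564180, 20021139 and 34317091 in clones 1, 2 and 3, and 17722 models had at least 1 count in fibroblasts against 19416 to 20853 in the clones.

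Of 17479 gene models tested, 4895 (28.0%) differed between iPSCs and fibroblasts at an adjusted p under 0.05 (edgeR's quasi-likelihood test, Benjamini-Hochberg over all models tested). In iPSCs 2387 models (13.7%) were higher and 2508 (14.3%) lower, and in every one of these all 3 clones lay on the same side of the fibroblast library. That position alone was common. Every clone was above the fibroblasts in 44.3% of the models tested and below in 35.9%. Over all called models the median fold was larger for the gains, many of which started near the limit of detection, and the median starting level was higher for the losses. The median log2 fold change was 3.92 among the higher models, from a median of 0.859 CPM (counts scaled to a common library size with TMM factors) in fibroblasts to 22.6 CPM in iPSCs. Among the lower models it was -2.88, from 60.3 to 7.77 CPM. Of the called models 566 higher and 660 lower ones changed less than 4-fold and 2 less than 2-fold, and with this few libraries the threshold itself leaves out small changes. The spread came from the clones alone, with 2 residual degrees of freedom, and the single fibroblast library was assumed to vary like a clone. edgeR also drew the spread of each model towards a trend over all models, with a median of 4.06 prior degrees of freedom. Without iPSC 2 the prior was infinite, so every model took the spread of the trend. The number of calls fell to 2779 without iPSC 3, of which 1217 higher and 1496 lower models were also called with all clones. When TMM factors were left out, 68.1% of the calls were higher instead of 48.8%, and the median over all models tested moved from 0.27 to 0.78 on the log2 scale.

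**Figure D1:**
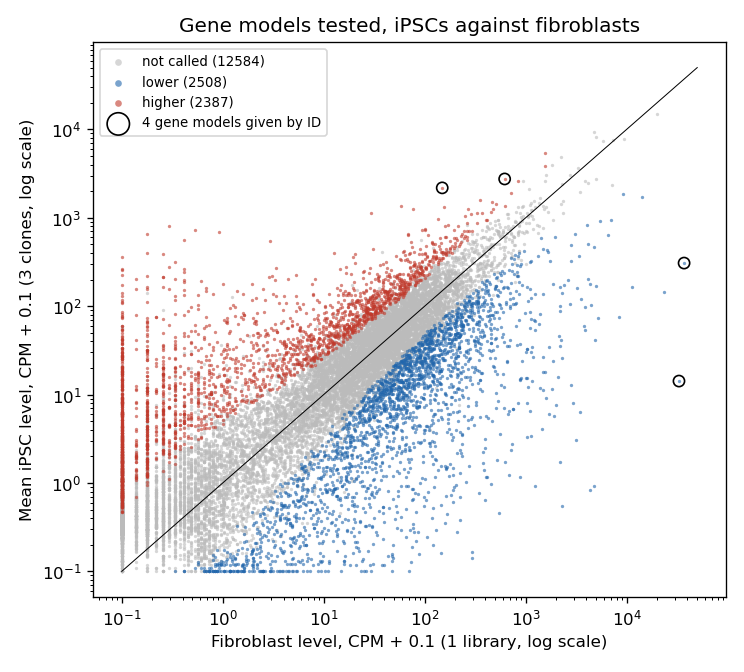
Mean level of the 3 iPSC clones against the level of the fibroblast library for the 17479 gene models tested, in CPM + 0.1 on log axes, with 1 point per model. The 2508 lower models (blue) reach far to the right below the line of equal level, and the higher models (red) include a column at the left edge with 0 counts in fibroblasts. Circles mark the 4 models given by ID.

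How much of the RNA was replaced was read from the share of each library that the called models held. These sets were picked by the same comparison, so the shares are a description with no test. Models lower in iPSCs held 48.2% of the fibroblast counts (Clopper-Pearson interval at 95%, 48.19 to 48.23%, counting error only). They held 8.46% in clone 1, 7.37% in clone 2 and 7.65% in clone 3, a mean of 7.83 ± 0.563% (SD, n = 3). Models higher in iPSCs held 3.81% (3.808 to 3.821%) of the fibroblast counts and 22.4, 22.2 and 23.0% in the clones, a mean of 22.5 ± 0.438% (SD, n = 3). The lost models thus gave up 40.4 percentage points and the gained models took up 18.7. The remainder appeared as a larger share for models that were not called, which held 48.0% of the fibroblast library and 69.1 to 70.4% of the iPSC libraries. Shares of a library add up to a fixed total, so a share can rise without more RNA from its models. In the iNSLC library, from the primary colonies between both stages, the lower models held 32.8% and the higher models 10.3%. This is 1 library of 11699186 counts, labelled K9_1 at passage 2. The sets were picked by the fibroblast and iPSC levels, which favours a value in between. The clones lay far apart from the fibroblasts and close to each other, but 3 libraries against 1 allow only 4 arrangements, and no exact permutation test can go below p = 0.25. The shares depended on the set of calls: without iPSC 1 the higher models held 1.69% in fibroblasts and 14.8% in iPSCs, without iPSC 3 they held 2.26 and 15.6%, and the lower models then held 38.5% in fibroblasts and 4.84% in iPSCs.

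**Figure D2:**
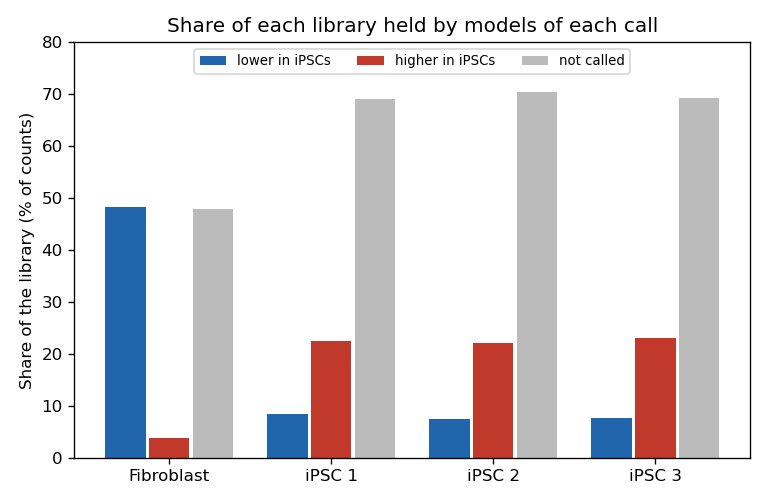
Share of all counts of a library (%) held by models called lower in iPSCs, called higher in iPSCs, or not called, for the fibroblast library and each iPSC clone. The lower models fall from 48.2% in fibroblasts to between 7.37 and 8.46% in the clones, and the higher models go from 3.81% to between 22.2 and 23.0%.

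The loss was concentrated in few models and the gain was spread over many. Of the fibroblast counts in lower models, 14.9% lay in 3 models and 24.8% in 10, and 68 models held 50.03%. Those 3 models took 7.20% of the fibroblast library, and 0.0621, 0.0520 and 0.0400% of the libraries of clones 1, 2 and 3. Of the iPSC counts in higher models, 5.90% lay in 3 models and 12.0% in 10, and 160 models were needed for 50.1%. The 10 most abundant higher models together took 2.49 to 2.91% of the iPSC libraries and 0.526% of the fibroblast library.

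The models given by ID are those with the widest gap in CPM between the fibroblasts and the nearest clone, among called models with a fold of at least 4. ENSCAFG00000017018 (CanFam3.1 chromosome 9, 26183852 to 26199927, minus strand, 51 exons) was the most abundant nuclear model of the fibroblasts per exon length. It had 37055 CPM in fibroblasts and 351, 337 and 233 CPM in clones 1, 2 and 3. All clones were far below the fibroblasts, yet they kept a clear level, and the model ranked 1094, 1095 and 1751 per exon length in the clones. It fell by 6.91 on the log2 scale (SE 0.385, edgeR adjusted p = 0.000802). ENSCAFG00000014812 (chromosome 36, 30487822 to 30526563, plus strand, 51 exons) had 32982 CPM in fibroblasts and 24.2, 9.08 and 9.02 CPM in the clones. Its loss was deeper, from rank 5 per exon length to between 9648 and 12055, and clone 1 kept more than the other two. It fell by 11.19 on the log2 scale (SE 0.732, edgeR adjusted p = 0.000988).

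On the other side, ENSCAFG00000001211 (chromosome 12, 3533049 to 3538533, plus strand, 4 exons) had 149 CPM in fibroblasts and 1932, 2121 and 2484 CPM in the clones. It moved from rank 1095 per exon length in fibroblasts to ranks 36, 26 and 48. It rose by 3.87 on the log2 scale (SE 0.421, edgeR adjusted p = 0.00287). ENSCAFG00000032596 (chromosome 25, 43563145 to 43567987, plus strand, 5 exons) was already abundant in fibroblasts, with 619 CPM, and had 1989, 3175 and 3081 CPM in the clones. It rose by 2.15 on the log2 scale (SE 0.450, edgeR adjusted p = 0.0191). The call was lost without iPSC 3, where edgeR's adjusted p was 0.0654. None of these 4 models shares exon positions with another model in the table.

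The first 10 models of this ranking differed in kind between both directions. The 10 higher models lay on 10 chromosomes, had 4 to 36 exons and log2 fold changes of 2.07 to 5.29, with 29.4 to 619 CPM in fibroblasts. All of them were thus expressed before reprogramming. The 10 lower models lay on 8 chromosomes and had 3 to 70 exons, 7 of them 40 or more. Their fibroblast levels were 5189 to 37055 CPM and their log2 changes had sizes of 2.33 to 11.19. The clones differed among themselves by at most 2.53 times in a higher model and by up to 5.40 times in a lower one. Together the 10 lower models went from 11.9% of the fibroblast library to 0.654, 0.585 and 0.713% of the clones. The 10 higher models went from 0.164% to 1.53, 1.56 and 1.76%.

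**Figure D3:**
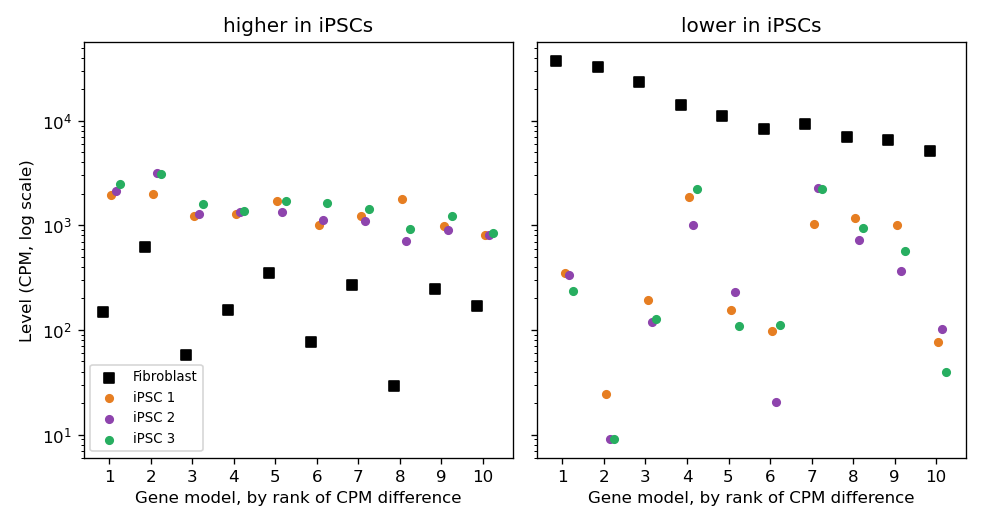
Level in CPM (log axis) in the fibroblast library (square) and in each iPSC clone (points) for the 10 models per direction with the widest gap to the nearest clone, ordered by that gap. In the left panel all clones lie above the fibroblast square, and in the right panel all lie below it, with clones apart by up to 5.40 times.

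The models were also grouped by exon number, since 7 of the 10 widest losses had 40 or more exons. These classes were formed after the values were seen and did not use the calls. The 372 models with 40 or more exons held 13.8% of the fibroblast counts and 4.01, 3.24 and 2.91% in clones 1, 2 and 3, a mean of 3.38 ± 0.564% (SD, n = 3). The fibroblast share was 4.09 times the iPSC mean. Counts grow with length, so the same was read per exon length, where these models held 4.04% in fibroblasts and 0.834, 0.637 and 0.556% in the clones. Of the 355 tested, 69 (19.4%) were higher and 65 (18.3%) lower in iPSCs, against 13.7 and 14.3% over all models, so in number they moved both ways. The drop in counts came from the most abundant ones. The 10 with most fibroblast counts fell from 10.7% of the library to between 0.298 and 0.442%, and all 10 were called lower. The other 362 held 3.12% in fibroblasts and 3.57, 2.94 and 2.59% in the clones, so that the fibroblast value lay within the range of the clones. Ranking by fibroblast counts favours a fall in the first 10 and lowers mainly the fibroblast share of the rest. The split is therefore a description with no test.

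Several of these 10 models are given here by position, picked after their values were seen. A model of 52 exons on chromosome 14 (19883733 to 19920718) had 23481 CPM in fibroblasts and 192, 118 and 128 CPM in the clones and fell by 7.33 on the log2 scale (SE 0.410, edgeR adjusted p = 0.000802). A model of 54 exons on chromosome 36 (30537639 to 30677658), the neighbour of ENSCAFG00000014812 on the opposite strand, had 11221 CPM in fibroblasts and 154, 231 and 110 CPM in the clones. Both were low in every clone, but the second kept more than its neighbour. A model of 66 exons on chromosome 12 (36722874 to 36838616) had 4856 CPM in fibroblasts and 16.2, 103 and 4.19 CPM in the clones. Here the clones disagreed widely, with clone 2 highest. It fell by 6.89 on the log2 scale (SE 1.44, edgeR adjusted p = 0.0191). A model of 40 exons on chromosome 10 (28063626 to 28124814) fell much less, from 4029 CPM to 932, 712 and 818 CPM.

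In the other exon classes the libraries differed less. Models of 6 to 20 exons, the bulk of every library, held 49.2% in fibroblasts and 55.9, 53.4 and 56.0% in the clones. Models of 21 to 39 exons held 14.1% in fibroblasts and 15.5 ± 1.24% in iPSCs (SD, n = 3). Single-exon models held 6.01% in fibroblasts and 7.90, 11.9 and 8.78% in the clones, but 37 of them are the models of the mitochondrial genome. Without these, the 6264 nuclear single-exon models held 1.68% in fibroblasts and 1.84, 1.90 and 1.99% in the clones. The mitochondrial share was 4.33% in fibroblasts and 6.05, 9.99 and 6.79% in the clones, and clone 2 stood highest.

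**Figure D4:**
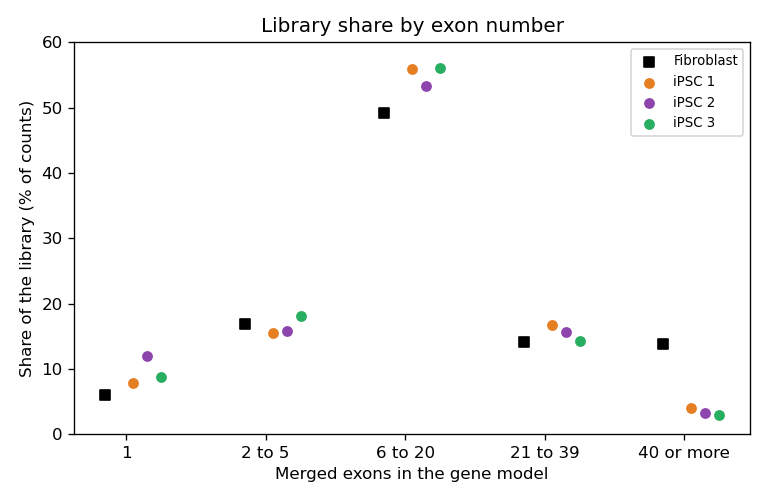
Share of all counts of a library (%) by number of merged exons of the gene model, for the fibroblast library (square) and each iPSC clone (points). In models of 40 or more exons the fibroblasts stand at 13.8% and the clones between 2.91 and 4.01%, whereas in models of 21 to 39 exons the fibroblasts, at 14.1%, lie close to the clones.

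Called models were somewhat larger than the rest in both directions. The median summed exon length of a model was 2774 bases among higher, 2410 among lower and 1923 among models not called. The median number of exons was 9, 8 and 7. The median span on the genome was 21151, 26132 and 16152 bases in the same order, so the lower models had shorter exons in total but spanned more genome than the higher ones. Single-exon models made up 7.04% of the higher, 5.30% of the lower and 10.5% of the models not called. Longer models collect more counts, and the part of this in the calls was not tested. Exon overlap with another model was found for 9.64% of the higher and 8.61% of the lower models, against 9.77% of all models tested. The sources used here do not give the strand setting of the counting, so reads of overlapping models on opposite strands may be shared.

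The level in fibroblasts was read against the direction of change. The fibroblast level is part of the difference, so it fixes part of the direction, and the classes are a description. Of the 151 models at 1000 CPM or more in fibroblasts, 100 (66.2%) were lower in iPSCs and 2 were higher. From 100 to 1000 CPM, 37.9% of 2173 were lower and 5.02% higher. Between 10 and 100 CPM, the largest class with 6823 models, 16.6% were lower and 9.07% higher. Under 1 CPM, 1220 of 5094 models (23.9%) were higher and 54 lower. By level in iPSCs the change was flatter: 21 of the 73 models at 1000 CPM or more were higher and 2 lower, and from 100 to 1000 CPM 25.8% of 1942 were higher and 8.03% lower.

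The 100 nuclear models with the most counts per exon length were compared between the libraries. Of the fibroblasts' 100, 43 were called lower in iPSCs, 0 higher and 57 were not called. Picking by the fibroblast level favours a fall. Over all models tested 14.3% were lower. Among models at 1000 CPM or more in fibroblasts the share was 66.2%, and from 100 to 1000 CPM it was 37.9%. The top 100 of fibroblasts and of clones 1, 2 and 3 had 58, 58 and 60 models in common, while the clones had 91 or 92 in common with each other. There were 87 models in the top 100 of every clone, of which 55 were also among the fibroblasts' top 100. Of the 87, 12 were called higher. The share of higher models was 13.7% over all models tested and 28.8% at 1000 CPM or more in iPSCs. The most abundant iPSC transcripts were thus mainly ones that fibroblasts had at a high level too.

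Among abundant models most changes were partial. Of 923 lower models with at least 100 CPM in fibroblasts, 787 (85.3%) still had 10 CPM or more in at least 1 clone, 115 had 1 to 10 CPM in the highest clone, and 21 (2.28%) were under 1 CPM in every clone. The median level left in iPSCs was 16.8% of that in fibroblasts, with quartiles of 5.18 and 29.4%. The gains were read from the other end. Of 523 higher models with at least 100 CPM in iPSCs, 449 (85.9%) had 10 CPM or more in fibroblasts, 29 had 1 to 10 CPM and 45 (8.60%) were under 1 CPM. Their median fibroblast level was 26.9% of that in iPSCs (quartiles 15.6 and 36.4%). Whether a level left in a clone comes from all cells, from a few differentiated ones or from reads of feeder cells was not tested.

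Models at the limit of detection on one side were described separately. Among 10393 models with at least 10 CPM in fibroblasts or in the iPSC mean, 93 (0.895%) had at least 10 CPM in every clone and fewer than 3 counts in fibroblasts, and 26 (0.25%) had the reverse pattern. All of these passed the test in edgeR, which the choice of models largely fixed. The patterns are not mirror images. The first asks for 10 CPM in 3 libraries and absence in 1, the second for 10 CPM in 1 library and absence in 3. The numbers 93 and 26 therefore cannot be set against each other directly. Leaving out 1 clone gave 103 to 120 models of the first pattern and 32 to 39 of the second. The newly detected models had 11.4 to 652 CPM in iPSCs (median 37.8), 18 of them 100 CPM or more. The lost ones had 10.2 to 69.8 CPM in fibroblasts (median 23.9), and none reached 100 CPM. Every model with 100 CPM or more in fibroblasts therefore reached 3 counts in at least 1 clone. A floor of 3 counts stood for 0.117 CPM in fibroblasts and for 0.0810 to 0.134 CPM in the clones. These limits cover counting error only.

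In 60 of the 93 newly detected models the fibroblast library had 0 counts. Against the floor of 3 counts they were at least 118-fold to at least 3083-fold higher in iPSCs. The highest of these, a model of 4 exons on chromosome 24 (37941702 to 37959468), had 336, 351 and 396 CPM in the clones, which thus agreed closely. Another, of 17 exons on chromosome 12 (52134428 to 52305290), had 350, 97.5 and 337 CPM, with clone 2 low. A model of 2 exons on chromosome 8 (47537364 to 47545644) had 135, 385 and 147 CPM, with clone 2 high. The median ratio of highest to lowest clone over the 93 models was 1.90. Of the 26 lost models 9 had 0 counts in all clones, and the highest, of 7 exons on chromosome 9 (47341218 to 47362792), went from 69.8 CPM to 0 counts, at least 682-fold lower against the mean of the 3 clones' floors.

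The newly detected models were spread over 33 chromosomes. Chromosome X held 10 of the 93 (10.8%), where it held 4.06% of all models tested and 5.45% of those called higher. All 10 were under 3 counts in fibroblasts, 9 of them at 0. A group of 3 models that followed each other among the models tested lay between 81691417 and 82292491 on X. The first, of 47 exons, had 26.8, 68.4 and 22.6 CPM in the clones. The second, of 58 exons, had 61.0, 107 and 50.7 CPM, and the third, of 2 exons, had 85.0, 25.2 and 18.4 CPM. Clone 2 was highest and clone 3 lowest in the first and the second model, and clone 1 was highest in the third. The positions were picked after their values were seen.

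By chromosome, calls were found everywhere. On nuclear chromosomes the share of higher models ranged from 8.95% of 190 on chromosome 19 to 18.5% of 157 on chromosome 36, and the share of lower models from 7.07% of 198 on chromosome 35 to 23.6% on chromosome 36. Chromosome 36 thus had the largest share in both directions, with 29 higher and 37 lower models. On chromosome X 18.3% of 710 models were higher and 12.0% lower. These shares were not tested against each other. The paper reports that only part of the cells of each clone kept the normal chromosome number, and the bearing of this on the shares was not tested.

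How alike the clones were was read from fold classes that use no test. A model was counted when its level was at least 4-fold from the fibroblasts and the higher group reached 10 CPM. In every clone 826 of 10393 models (7.95%) were higher and 1178 (11.3%) lower. Without TMM factors these were 1187 and 830, so the balance of directions turned. Of 1259 models that were 4-fold higher in any clone, 65.6% were so in all 3, 14.4% in a pair of clones, and 252 models were so in 1 clone. Of 2093 models that were 4-fold lower in any clone, 56.3% were so in all 3 and 28.3% in 1. The clones share the fibroblast library, so its own deviations are in each of these numbers.

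Single clones departed from the others in different ways. Clone 3 alone passed 4-fold lower in 348 models, clone 2 alone in 202 and clone 1 alone in 42. Clone 1 was the one missing in 140 lower models, clone 2 in 122 and clone 3 in 61. Clone 1 had the fewest losses of 4-fold or more, 1403 against 1581 in clone 2 and 1788 in clone 3. Among the gains clone 2 was alone in 100 models, clone 3 in 96 and clone 1 in 56. Clone 2 was the one missing in 98 higher models, clone 3 in 45 and clone 1 in 38.

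With TMM factors and a minimum of 10 CPM, the balance of directions among models past the fold in every clone turned with the size of the change. It also depended on these settings. At 4-fold, 1742 models were higher and 1612 lower with a minimum of 1 CPM, and 325 and 749 with 50 CPM. Without TMM factors more models were higher than lower at 4-fold. At 2-fold 1741 models were higher and 2260 lower in every clone. At 32-fold 292 were higher and 269 lower, and at 256-fold 55 and 39. At 1024-fold 12 were higher and 6 lower. Taken singly, the clones differed in this. In clone 3 more models were lower than higher at every fold, with 339 higher and 386 lower at 32-fold. At 32-fold clone 1 had 345 higher and 366 lower models, and clone 2 had 411 and 364. At 1024-fold clones 1, 2 and 3 had 30, 25 and 21 higher models and 15, 15 and 25 lower ones. A model at 10 CPM cannot pass 85.4-fold against the floor of the fibroblast library, nor 74.9-fold against the floor of clone 2, the shallowest clone library, so the highest folds hold abundant models only.

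**Figure D5:**
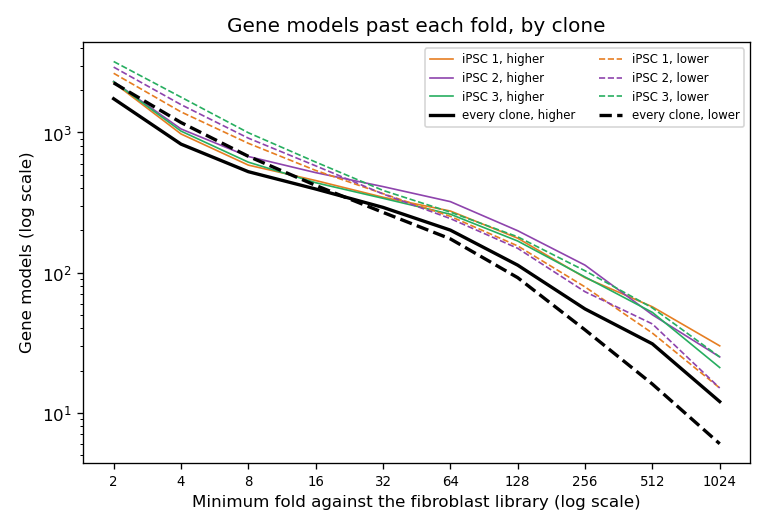
Number of gene models (log axis) at least a given fold (log axis, 2 to 1024) higher (solid) or lower (dashed) than the fibroblast library, for each iPSC clone and for models past the fold in every clone (black). A single clone is counted with at least 10 CPM of its own, every clone with a mean of at least 10 CPM. The black dashed line lies above the black solid one up to 16-fold (419 lower, 395 higher) and below it from 32-fold on. For clone 3 the dashed line lies above the solid one at every fold.

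Most models that passed 4-fold in every clone were also called, 793 of 826 higher and 1167 of 1178 lower ones. The 33 and 11 that were not had widely differing clones. The SD of the clones on the log2 scale had a median of 2.05 and 2.31 in these, and of 0.40 and 0.50 in the called ones. The call itself uses this spread. Among models higher in iPSCs the clones were closer together the higher the level: the median coefficient of variation was 22.3% at 10 to 100 CPM (976 models), 15.6% at 100 to 1000 CPM (502 models) and 12.5% at 1000 CPM or more (21 models). For models not called it was 21.5, 17.6 and 23.0%. At 100 to 1000 CPM in iPSCs, 89.0% of the higher models lay within 2-fold between the highest and the lowest clone, against 82.7% of the 156 lower models and 89.5% of the models not called.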

How the data were processed

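RNA isolated with RNeasy columns was made into Illumina libraries. The authors deposited raw counts of reads per gene model. The submitters' processing notes name featureCounts 1.5.2, STAR 2.5.3a, Trim Galore 0.4.0 and CanFam3.1. The sources used here do not give strand or multi-mapping settings. Vector-derived or feeder-cell reads were not separated. The paper reports from genomic PCR that the episomal vectors had been lost from all of its dog iPSC clones. The series table and the table of each library held the same counts (0 differing values). Among counts of 1 to 10, 59.6 to 64.0% were even in the 4 libraries, so read pairs may have been counted by mate, and counts divided by 2 were run as an alternative. Exon number, summed exon length and span came from merged exon coordinates in the files.

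edgeR 4.0.16 in R 4.3.3 (TMM, filterByExpr, glmQLFit, glmQLFTest) was fitted to all 5 libraries in 3 groups. The iNSLC library had its own group. TMM factors were 0.770 for fibroblasts and 1.08 to 1.12 for the clones. The standard error was the log2 fold change divided by the square root of F. Levels are TMM-scaled CPM. Levels per exon length are counts divided by exon length, scaled to a common sum. Ratios used a floor of 3 counts. Models are named by the CPM gap to the nearest clone (called, at least 4-fold, at least 10 CPM in the higher group): 10 per direction, the first 2 by ID. Planned marker lists needed symbols and were not used. DESeq2 1.42.0 and limma 3.58.1 were alternatives. The fit was tested on simulated counts with 200 changed models, far fewer than were called here. That simulation did not cover a shift in composition of this size and let the fibroblast library vary like a clone. P-values measure the spread between clones of 1 dog. Groups, lists and rules were chosen with earlier results of these data known.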

Additional observations from a re-analysis of the deposited data

How the results depend on the processing

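The number of models called between iPSCs and fibroblasts stayed within 1.5 times of 4895 under 11 of 13 alternatives to the test, scaling, filter, threshold and clones. At an adjusted p under 0.01 it was 1726, with 37.2% higher. Leaving out 1 clone gave 2779 (without iPSC 3) to 6906 (without iPSC 2). DESeq2 gave 3161 higher and 2843 lower models, and limma-voom 1935 and 2755. The 4 models given by ID kept their direction under all 12 alternatives each, and 47 of 48 of these values passed an adjusted p of 0.05, with ENSCAFG00000032596 without iPSC 3 as the exception (adjusted p = 0.0654). Models 4-fold apart in every clone numbered 2004 in all, 4001 at a fold of 2 and 561 at a fold of 32. They numbered 3354 at a minimum of 1 CPM (1742 higher, 1612 lower) and 1074 at 50 CPM (325 higher, 749 lower). Alternatives without a clone were added after the data were seen and gave 2129 to 2191. The newly detected models were 60 with 0 counts in fibroblasts, 160 with a floor of 10 counts, 474 at 1 CPM and 21 at 50 CPM. The lost models were 9, 61, 131 and 1 in the same order.

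Without mitochondrial models, the higher models held 3.86% of the fibroblast library and 23.9% of the iPSC libraries, and the lower models 50.4 and 8.47%. With the calls of DESeq2 the same shares were 5.36, 28.0, 52.6 and 10.5%. With calls made without 1 clone they ranged from 1.69 to 5.25% and 14.8 to 27.8% for higher models, and from 38.5 to 51.4% and 4.84 to 9.51% for lower models, in fibroblasts and iPSCs. The exon cutoff, varied after the data were seen, gave 18.4 and 7.75% at 30 exons and 11.3 and 1.48% at 50 exons, and the share per exon length at 40 exons was 4.04 and 0.676%. No paired analysis was possible because the fibroblast group has 1 library without a replicate number. The fibroblast library could not be left out, and its own variation was not measured.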
